A study of Mus musculus with 24 samples.

Results

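The CC chemokine ligands described here were 10 genes of the mouse count table, Ccl2, Ccl3, Ccl4, Ccl5, Ccl6, Ccl7, Ccl8, Ccl9, Ccl12 and Ccl24, found by matching these symbols to the table's gene identifiers, out of 47643 genes in all. RNA was sequenced from macrophages of 2 sources, grown from induced pluripotent stem cells (iPSC) or from bone marrow. Macrophages of each source were taken on day 0 without co-culture and on days 3, 6 and 12 of co-culture, with 3 libraries in each of the 8 groups and 24 libraries in all. Mouse strain, animal age, iPSC clone, culture factors and co-culture partner are not given in the sources used here, nor is whether replicates came from separate cultures or animals, so the p-values measure only the spread between these libraries. Each comparison with day 0 changes both the time and the co-culture, and the effects of these cannot be told apart.

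CC chemokines are small secreted proteins with adjacent cysteines near the amino terminus that draw leukocytes through G protein-coupled receptors. Macrophages are among their main producers, and signals such as NF-kB, interferons, IL-4 and M-CSF are known to set which ones are made. Ccl2, Ccl7, Ccl8 and Ccl12 are monocyte chemoattractant proteins, of which Ccl2, Ccl7 and Ccl12 act on Ccr2. Ccl3 and Ccl4 are the macrophage inflammatory proteins, of which Ccl3 acts on Ccr1, and Ccl5, also called RANTES, acts on Ccr1 and Ccr3 among others. Ccl6 and Ccl9 belong to a rodent branch of the family that acts on Ccr1, and Ccl24, or eotaxin-2, acts on Ccr3 of eosinophils.

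Of the 10 genes, 9 lie on chromosome 11 in the mm10 (GRCm38) coordinates of the file. Ccl2 (ENSMUSG00000035385.5, 82035571 to 82037453), Ccl7 (82045712 to 82047525), Ccl12 (82101845 to 82103400) and Ccl8 (82115185 to 82116799) sit on the plus strand within 81.2 kb, with Ccl11 between them. A second cluster starts 1409 kb further on and spans 138.9 kb. It holds Ccl5 (83525778 to 83530518), Ccl9 (83572919 to 83578636), Ccl6 (83587882 to 83593087) and Ccl3 (83647844 to 83649355) on the minus strand and Ccl4 (83662584 to 83664683) on the plus strand. Ccl24 lies apart on chromosome 5 (135569937 to 135573049, minus strand). The span of Ccl2 overlaps that of Gm17268 on the opposite strand, which had 0 counts over the 24 libraries. The span of Ccl6 overlaps that of E230016K23Rik, which had 58. Any reads that overlapped exons of both genes of a pair were not counted for either gene.

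All 24 libraries held between 5839316 and 11805478 counts and between 15357 and 18321 genes with a count. Levels are given in CPM, counts scaled to a common library total, and levels of different genes were compared as CPM per kb of exon unless stated. The 8 pan-macrophage markers (Csf1r, Cd68, Adgre1 and others) summed to between 5166 and 11972 CPM in every library. Summed microglial markers went from between 193.4 and 368.1 CPM on day 0 to between 3680 and 6078 on day 12 in iPSC-derived cells, and from between 745.9 and 855.9 to between 5483 and 5892 in bone marrow-derived cells. Siglech, 1 of the 8 microglial markers, was at 0 in all iPSC-derived libraries of both days. One library stood apart for several CC ligands: iPSC-derived day 0 replicate 3 held 280.9 CPM of Ccl2, against 32 and 29.5 CPM in replicates 1 and 2, and it was also highest for Ccl7, Ccl12 and Ccl9. Results that rest on it are given with and without it.

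By level per exon length, the set of ligands that dominated differed between the sources and, in bone marrow-derived cells, between days. As shares of the 10 genes' summed level per length, Ccl3 and Ccl4 together made up a mean of 69.2%, 59.3%, 68.8% and 54.7% on days 0, 3, 6 and 12 in iPSC-derived cells, against 18.7%, 7.96%, 18.5% and 15.9% in bone marrow-derived cells. Ccl6 alone made up 52.1% ± 2.85 (SD, n = 3) of the sum in bone marrow-derived cells on day 0, Ccl5 46.2% ± 4.52 on day 3, and Ccl2, Ccl7, Ccl8 and Ccl12 together 65.3% ± 5.49 on day 12. The same 4 genes made up 22% ± 8.94 in iPSC-derived cells on day 12 and 1.34% ± 0.405 on day 3. These shares rest on the exon lengths used, 3045 bases for Ccl9 against 766 for Ccl3 and 660 for Ccl4. In CPM without this division, Ccl9 had the highest mean of the 10 in every iPSC-derived group (644.1, 464.9, 321.6 and 615.8). In bone marrow-derived cells on day 3 its mean of 477.3 CPM lay near that of Ccl5 (454.5). The sum itself was 1238 ± 307.5, 547.5 ± 71.3, 619.9 ± 279.2 and 1056 ± 242.2 CPM per kb on days 0, 3, 6 and 12 in iPSC-derived cells, and 418.6 ± 28.3, 1018 ± 101, 563.6 ± 97.3 and 920.8 ± 112.5 in bone marrow-derived cells. In bulk RNA, more cells of a kind and more RNA per cell cannot be told apart.

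**Figure D1:**
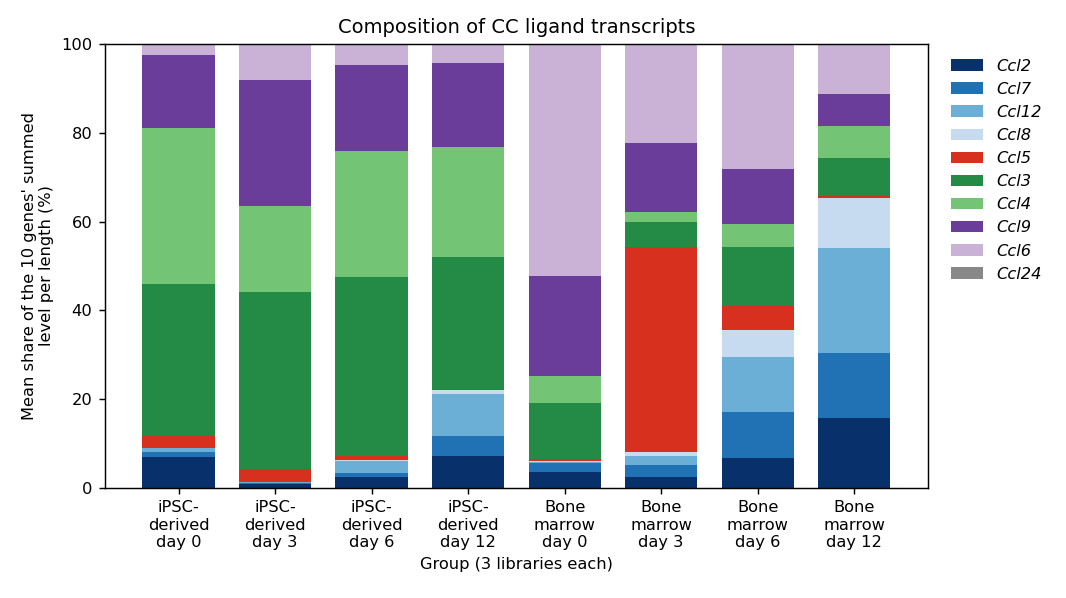
Mean share of each CC ligand in the 10 genes' summed level per exon length (%, y axis) in each group (x axis, 3 libraries per group). Green (Ccl3, Ccl4) is the widest part in all iPSC-derived groups, while bone marrow-derived cells pass from Ccl6 and Ccl9 (purple) on day 0 through Ccl5 (red) on day 3 to Ccl2, Ccl7, Ccl12 and Ccl8 (blue) on day 12.

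All 10 genes passed the low-count filter and were tested with edgeR's quasi-likelihood test among 15000 genes, with an adjusted p under 0.05 taken as a change. Against day 0, 5 of the 10 members changed in iPSC-derived cells on day 3, each lower, where 19.4% of all genes tested changed in either direction. On day 6 there were 4, each lower (25.4% of all genes), and on day 12 there were 4, with 3 higher and 1 lower (24.7%). Bone marrow-derived cells had 3 members changed on day 3, each higher (18.5% of all genes), 4 on day 6, each higher (19.6%), and 6 on day 12, with 5 higher and 1 lower (23.8%). Their median log2 change from day 0 to day 12 was 1.29 in bone marrow-derived cells, where that of all genes was 0.04. From day 0 to day 3 it was -0.97 in iPSC-derived cells (-1.0 without Ccl8, which had no fold there), against 0.04 for all genes. In the reported fit all groups share the estimate of spread of a gene. Spread among libraries of 1 source thus enters the tests within the other. The low-count filter and the fit bore on these counts: with the fit limited to the 2 groups of a comparison, bone marrow-derived cells had 6 members called on day 3 and 8 on day 6, and iPSC-derived cells had 2 on day 6.

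**Figure D2:**
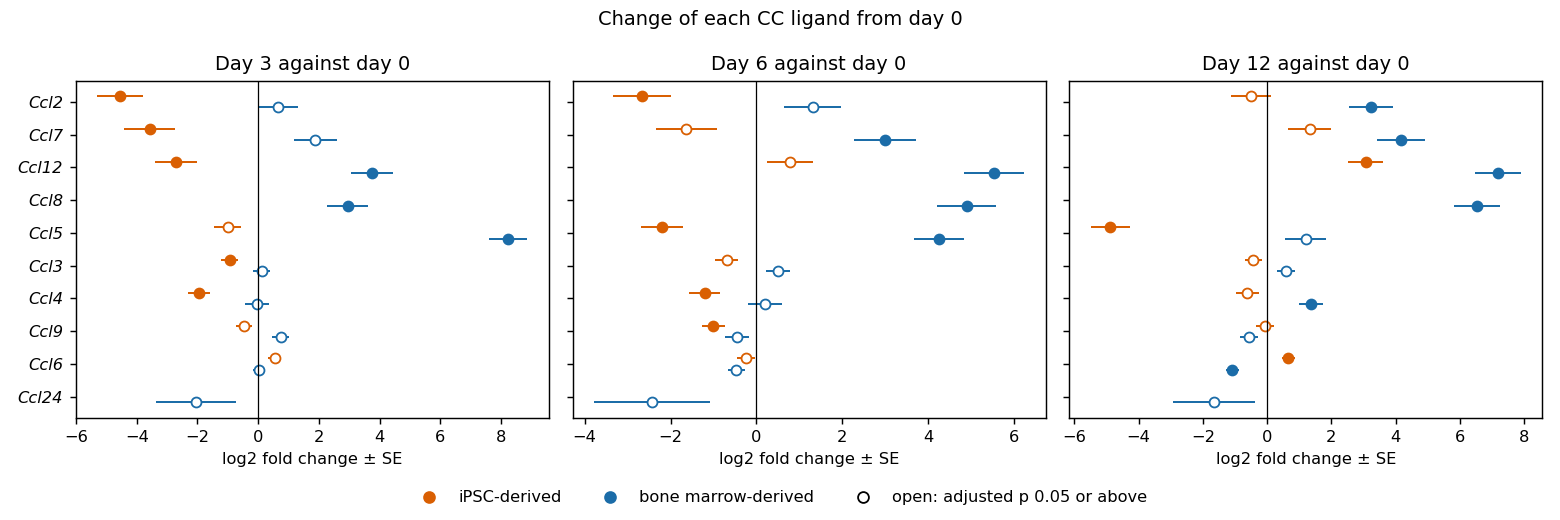
Change of each CC ligand from day 0 (x axis, log2 fold change ± SE from edgeR) on days 3, 6 and 12, for iPSC-derived (orange) and bone marrow-derived (blue) cells; filled points had an adjusted p under 0.05, and changes that rest on a group with 3 counts or fewer are not drawn. Ccl2 and Ccl7 lie left of 0 in iPSC-derived cells and right of 0 in bone marrow-derived cells on day 3, and Ccl5 is furthest right in bone marrow-derived cells on that day.

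Between day 3 and day 12, both in co-culture, 6 members changed in iPSC-derived cells, 5 higher and 1 lower (8.89% of all genes changed), and 8 in bone marrow-derived cells, 5 higher and 3 lower (8.45%). Without bone marrow-derived day 3 replicate 1 or replicate 3 the latter count fell from 8 to 5. Between the sources, 9 members differed on day 0, 6 higher and 3 lower in iPSC-derived cells (36.0% of all genes differed). On day 3 there were 8, with 2 higher and 6 lower (17.9%), on day 6 there were 7, with 2 higher and 5 lower (13.2%), and on day 12 there were 5, with 3 higher and 2 lower (9.77%). Their median log2 difference between sources, iPSC-derived over bone marrow-derived, was 1.95 on day 0 and -2.42 on day 3, against 0.00 and -0.02 over all genes. The day 12 count was 8 with the fit limited to these groups and 9 without the low-count filter.

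The source interaction tested whether the change between 2 days differed between the sources, as the iPSC-derived log2 change minus the bone marrow-derived one. It called 7 members for day 0 to day 3, 1 higher and 6 lower (20.5% of all genes), 6 for day 0 to day 12, 1 higher and 5 lower (20.1%), and 2, each higher, for day 3 to day 12 (3.19%). The last count was 1 without iPSC-derived day 12 replicate 1, 0 without replicate 2 of that group, and 4 with DESeq2.

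**Figure D3:**
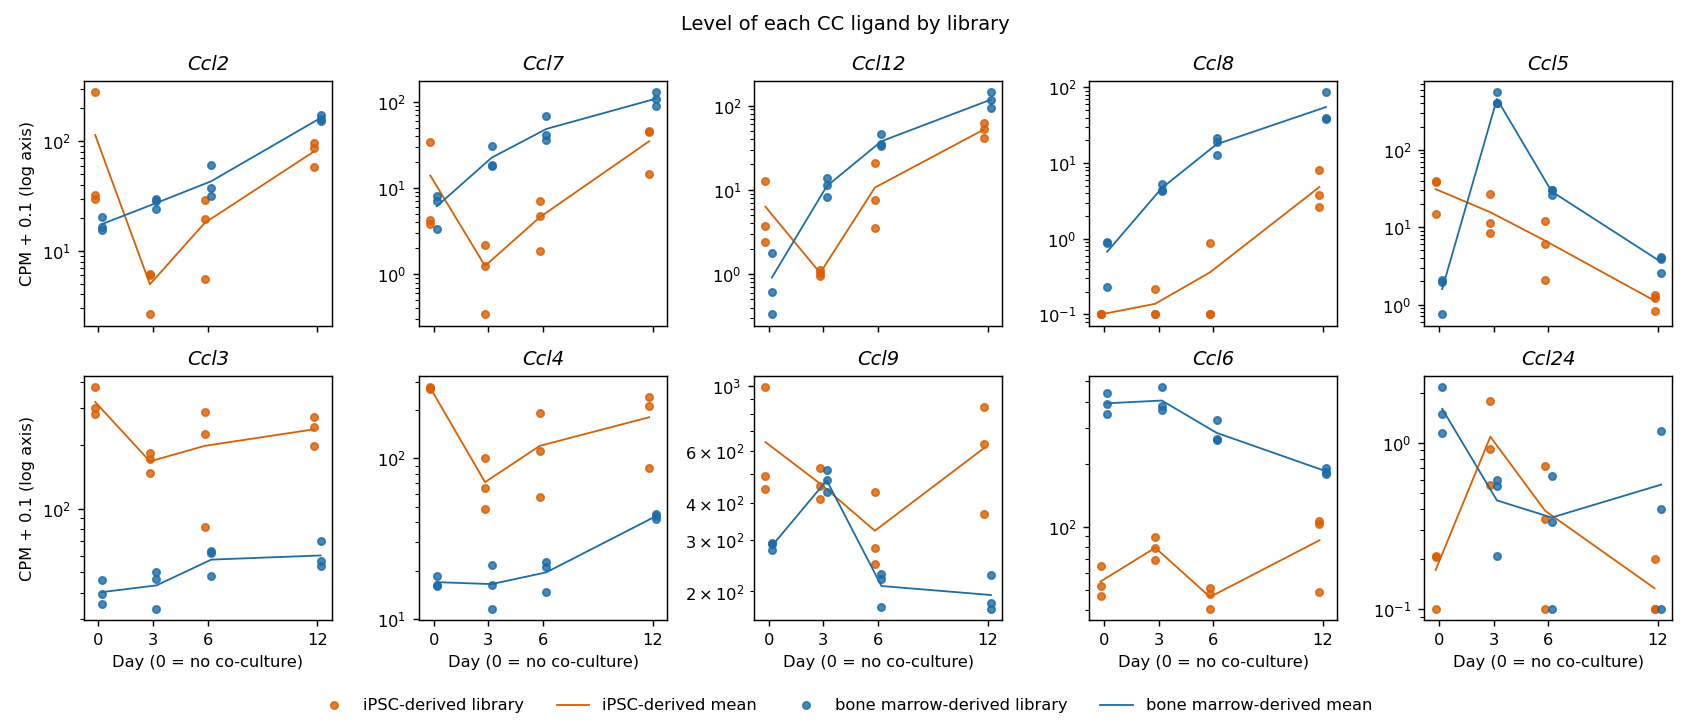
Level of each CC ligand (y axis, CPM + 0.1, log axis) by day (x axis) in every library (points) with the group mean (line), for iPSC-derived (orange) and bone marrow-derived (blue) cells. Ccl2, Ccl7, Ccl12 and Ccl8 climb from day 0 to day 12 in bone marrow-derived cells, and 1 iPSC-derived day 0 library lies far above the other two for Ccl2 and Ccl7.

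The monocyte chemoattractant genes rose over the 12 days in bone marrow-derived cells. Ccl2, the main ligand of Ccr2 on monocytes, stood there at 20.4, 15.5 and 16.4 CPM on day 0, 29.4, 28.6 and 23.9 on day 3, 61, 31.3 and 37.1 on day 6, and 175.0, 160.7 and 154.6 on day 12. All libraries of each later day lay above all those of day 0. The log2 change by day 12 was 3.23 ± 0.69 (SE, adjusted p = 0.0018), while the values of 0.65 on day 3 and 1.31 on day 6 (adjusted p = 0.19) did not pass the test. With the fit limited to these groups both values passed (adjusted p = 0.029 and 7.8e-04). From day 3 to day 12 Ccl2 rose by 2.58 ± 0.67 (adjusted p = 0.019), a call lost without any 1 of the 3 day 3 libraries (adjusted p 0.065 to 0.084).

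iPSC-derived cells held 32, 29.5 and 280.9 CPM of Ccl2 on day 0, 5.95, 2.53 and 6.09 on day 3, 28.9, 5.46 and 19.3 on day 6, and 97.1, 57.7 and 87.7 on day 12. The day 3 libraries thus lay below all those of day 0 and day 12, and overlapped day 6 through its replicate 2. Ccl2 fell by 4.54 ± 0.76 on the log2 scale from day 0 to day 3 (adjusted p = 2.2e-04), and without iPSC-derived day 0 replicate 3 it fell by 2.65 and still passed. From day 3 to day 12 it rose by 4.04 ± 0.75 (adjusted p = 0.0017). That replicate decided the other comparisons with day 0: the day 6 change was -2.67 with it and -0.78 without it (adjusted p = 0.19), and the day 12 change was -0.50 (adjusted p = 0.62) with it and 1.39 without it (adjusted p = 0.024).

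Ccl7, which acts on Ccr1, Ccr2 and Ccr3, followed a like course. Bone marrow-derived libraries held 3.22, 8 and 6.9 CPM on day 0, 30.4, 18.6 and 18.1 on day 3, 68.1, 40.6 and 36.4 on day 6, and 129.4, 107.2 and 89.5 on day 12, so no 2 days overlapped. The change from day 0 was 1.88 on day 3 (adjusted p = 0.072; 6.2e-04 with the fit limited to these groups), 3.00 ± 0.72 on day 6 (adjusted p = 0.0057) and 4.16 ± 0.75 on day 12 (adjusted p = 3.5e-04). The day 3 to day 12 change of 2.28 (adjusted p = 0.04) was lost without any 1 of the 6 libraries compared (adjusted p 0.065 to 0.15). In iPSC-derived libraries Ccl7 stood at 3.72, 4.16 and 33.7 CPM on day 0, 1.13, 0.241 and 2.07 on day 3, 7.01, 1.74 and 4.69 on day 6, and 44.2, 14.6 and 45.8 on day 12. Days 0 and 12 overlapped only through replicate 3 of day 0. The log2 change was -3.57 ± 0.84 from day 0 to day 3 (adjusted p = 0.0047), and -1.76 without that replicate (adjusted p = 0.074). By day 12 it was 1.33 (adjusted p = 0.16), and 3.14 without that replicate (adjusted p = 6.0e-04). The rise from day 3 to day 12 did not involve day 0 and was 4.90 ± 0.85 (adjusted p = 9.6e-04; 5.57 without iPSC-derived day 3 replicate 3).

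Ccl12, a mouse monocyte chemoattractant and Ccr2 ligand, had 0.516, 0.232 and 1.69 CPM in bone marrow-derived cells on day 0. It had 13.6, 8.01 and 11.2 on day 3, 45.5, 34.7 and 32.6 on day 6, and 144.0, 92.6 and 115.9 on day 12. Every day lay clear of the one before. The log2 changes from day 0 were 3.75 ± 0.70, 5.54 ± 0.70 and 7.18 ± 0.72 (adjusted p = 4.9e-04, 5.6e-06 and 2.2e-07), and 4.85, 6.65 and 8.27 without bone marrow-derived day 0 replicate 3, the highest of its group. On day 12 against day 0 this was the largest change of the 10 genes in these cells. From day 3 to day 12 Ccl12 rose by 3.43 ± 0.55 (adjusted p = 2.7e-04).

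In iPSC-derived cells Ccl12 held 2.3, 3.61 and 12.7 CPM on day 0, 1.03, 0.842 and 0.919 on day 3, 7.51, 3.47 and 20.6 on day 6, and 62.6, 41.6 and 52.5 on day 12. All day 12 libraries lay above all others of the source. The change by day 12 was 3.07 ± 0.55 (adjusted p = 3.0e-04; 4.14 without day 0 replicate 3), and that from day 3 to day 12 was 5.79 ± 0.68 (adjusted p = 1.2e-05). The fall to day 3, -2.71 ± 0.68 (adjusted p = 0.0069), was -1.65 without that replicate (adjusted p = 0.083).

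Ccl8, a monocyte chemoattractant that in the mouse acts on Ccr8 of type 2 T cells, was nearly absent on day 0. Bone marrow-derived libraries held 0.773, 0.812 and 0.13 CPM on day 0, 5.25, 4.35 and 4.13 on day 3, 21.2, 19 and 12.7 on day 6, and 86.4, 39.8 and 38.6 on day 12. No 2 days overlapped, and the log2 changes were 2.95 ± 0.68, 4.90 ± 0.69 and 6.54 ± 0.71 (adjusted p = 0.0033, 1.4e-05 and 3.9e-07). From day 3 to day 12 it rose by 3.58 ± 0.58 (adjusted p = 2.2e-04). No iPSC-derived day 0 library had a Ccl8 count, 1 day 3 library had 0.115 CPM and 1 day 6 library 0.781, and day 12 libraries held 7.91, 2.56 and 3.74 CPM. With 130 counts on day 12 against 0 on day 0, Ccl8 was at least 41.6-fold higher on day 12 (floor of 3 counts over the group). Ccl8 thus reached every iPSC-derived library only on day 12.

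Compared between sources on the same day, Ccl2 and Ccl12 were higher in iPSC-derived cells on day 0 and lower on day 3. The day 0 log2 difference was 2.71 for Ccl2 (adjusted p = 0.004) and 2.94 for Ccl12 (adjusted p = 0.0027), but without iPSC-derived day 0 replicate 3 these were 0.82 (adjusted p = 0.15) and 1.87 (adjusted p = 0.036), and Ccl12 was 4.03 without bone marrow-derived day 0 replicate 3. For Ccl7 it was 1.19 (adjusted p = 0.21), and -0.62 without the iPSC-derived library. On day 3 the differences were -2.48 for Ccl2, -4.26 for Ccl7 and -3.53 for Ccl12, and all 3 passed the test. The Ccl2 value was -2.65 (adjusted p = 0.051) without iPSC-derived day 3 replicate 1 and -2.17 (adjusted p = 0.091) without replicate 2, and Ccl7 was -4.92 without replicate 3. Ccl8 was lower in iPSC-derived cells throughout, at least 5.35-fold on day 0 (0 against 14 counts; adjusted p = 0.071 with the fit limited to these groups) and 122.4-fold on day 3 (1 against 129 counts, 95% exact interval 21.6 to 4870). On day 6 the difference was -5.85 (adjusted p = 5.2e-06), and all 8 iPSC-derived counts came from replicate 3; without it Ccl8 was at least 94.4-fold lower there (0 against 427 counts). Ccl7 was also lower on day 6 (-3.43 ± 0.74, adjusted p = 0.0032), and Ccl2 had -1.27 (adjusted p = 0.24). The day 6 value of -1.82 for Ccl12 (adjusted p = 0.024) was lost without iPSC-derived day 6 replicate 1 or 2 or bone marrow-derived day 6 replicate 1 (adjusted p 0.078 to 0.089), and was -2.79 without iPSC-derived replicate 3. On day 12 only Ccl8 of the 4 passed, 3.54 ± 0.58 lower on the log2 scale, and -1.02 for Ccl2, -1.64 for Ccl7 and -1.17 for Ccl12 did not pass, whereas with the fit limited to these groups they did (adjusted p = 0.015, 0.033 and 0.011).

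The change from day 0 differed between sources for Ccl2, Ccl7 and Ccl12. From day 0 to day 3 the interaction was -5.19, -5.45 and -6.47, and without iPSC-derived day 0 replicate 3 it was -3.30, -3.64 and -5.40, all past the test. Without bone marrow-derived day 0 replicate 3 the Ccl12 value was -7.54, and without iPSC-derived day 3 replicate 3 the Ccl7 value was -6.12. By day 12 it was -3.73 for Ccl2 and -4.11 for Ccl12 (-1.83 and -3.04 without iPSC-derived day 0 replicate 3, and -5.18 for Ccl12 without bone marrow-derived day 0 replicate 3). Ccl7 had -2.83 (adjusted p = 0.044), and this call was lost without any 1 of 9 of the 12 libraries (values -3.08 to -1.02). For day 3 to day 12, both in co-culture, the interactions of 1.46 for Ccl2, 2.62 for Ccl7 and 2.36 for Ccl12 did not pass (adjusted p = 0.50, 0.22 and 0.15; 0.041 for Ccl12 with DESeq2).

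Fibroblast markers (Col1a1, Col3a1 and others) moved with day in the same libraries. They summed to between 0.261 and 14.8 CPM in bone marrow-derived cells on day 0 and between 93.4 and 190.0 on day 12, and to between 2.52 and 26 in iPSC-derived cells on day 0, with replicate 3 the highest, and between 265.3 and 477.2 on day 12. None of the fibroblast markers was at 0 throughout a group. They were highest in iPSC-derived cells on day 6, between 362.7 and 763.3 CPM. Ccl2, Ccl7, Ccl8 and Ccl12 had means of 17.9, 4.48, 0.26 and 10.5 CPM in that group. The markers, Ccl8 and Ccl12 were highest there in replicate 3, and Ccl2 and Ccl7 in replicate 1. In bone marrow-derived cells on day 12, the markers and all 4 genes were highest in replicate 1. In iPSC-derived cells on day 12, the markers and Ccl7 were highest in replicate 3, and Ccl2, Ccl8 and Ccl12 in replicate 1. Astrocyte markers also moved with day, from between 15.1 and 23.4 CPM on day 0 to between 56.8 and 82.7 on day 12 in bone marrow-derived cells, and from between 28.5 and 50.3, with replicate 3 the highest, to between 80.1 and 96.2 in iPSC-derived cells. None of the 6 was at 0 throughout a group, except Aqp4 in iPSC-derived cells on day 3. The part of either marker list in the rise of the 4 genes was not tested.

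The monocyte chemoattractant genes also varied together. Over the 24 libraries, which share groups and depth, Pearson's r of log2 CPM was 0.88 for Ccl2 and Ccl7, 0.86 for Ccl7 and Ccl8, 0.85 for Ccl7 and Ccl12, and 0.80 for Ccl8 and Ccl12. Within groups, as deviations from the group means, Ccl2 and Ccl7 kept r = 0.88 while Ccl7 and Ccl8 had 0.25, as did Ccl8 and Ccl12. The value for Ccl2 and Ccl7 includes iPSC-derived day 0 replicate 3, which stood apart for both, and was not computed without it. The balance between Ccl2 and Ccl7 differed between groups: Ccl2 over Ccl7 per length was between 5 and 6.04 in iPSC-derived cells on day 0, between 1.35 and 2.78 on day 12, and between 0.543 and 1.22 in bone marrow-derived cells on days 3 to 12. Ccl12 over Ccl8 per length was between 7.53 and 15.5 in iPSC-derived cells on day 12 and between 1.59 and 2.86 in bone marrow-derived cells on that day, with no overlap.

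Ccl12 and Ccl8 are neighbours that rose together, so the 250 bases before their RefSeq start sites (GRCm38.p6, plus strand, chr11:82101595-82101844 and chr11:82114935-82115184) are shown. Capitals mark runs of at least 8 bases shared by both at nearly the same distance from the start (within 5 bases).
Ccl12: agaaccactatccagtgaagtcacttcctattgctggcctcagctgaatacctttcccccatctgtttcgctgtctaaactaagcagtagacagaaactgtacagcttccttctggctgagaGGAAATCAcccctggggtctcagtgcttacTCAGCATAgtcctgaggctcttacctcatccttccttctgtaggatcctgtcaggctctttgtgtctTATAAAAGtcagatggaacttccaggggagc
Ccl8: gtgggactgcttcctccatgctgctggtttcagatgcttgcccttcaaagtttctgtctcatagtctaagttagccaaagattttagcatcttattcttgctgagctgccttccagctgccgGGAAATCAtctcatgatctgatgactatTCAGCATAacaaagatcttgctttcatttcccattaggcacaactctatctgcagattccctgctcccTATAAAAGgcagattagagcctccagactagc
The shared run TATAAAAG begins at -31 in Ccl12 and -32 in Ccl8, counting the base before the start as -1. It holds the letters TATAAA, found in 7.59% of the 32851 promoters of the table over the same 250 bases. The Ccl9 promoter shown further on also holds the whole run, at a greater distance from the start. The runs TCAGCATA (from -98 and -100) and GGAAATCA (from -128 in both) complete the set. Neither promoter, from 250 bases before to 50 after the start, held any of the 4 motifs searched on both strands, the NF-kB, AP-1 (TGANTCA), interferon response element and STAT6 motifs, which 1.47%, 7.81%, 3.44% and 6.95% of all promoters held. The table matched 5 of the 10 genes (Ccl3, Ccl6, Ccl8, Ccl9 and Ccl12). How often other pairs of promoters share runs of this length at like distances was not computed.

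Ccl5, which attracts T cells and monocytes, took a different course in the 2 sources on entering co-culture. Bone marrow-derived cells held 0.644, 1.86 and 1.95 CPM on day 0, 400.6, 557.2 and 405.8 on day 3, 30.4, 30.5 and 25.6 on day 6, and 3.81, 2.48 and 4.05 on day 12. The lowest day 3 library lay far above the highest library of any other group (39.8 CPM, iPSC-derived day 0). The change from day 0 was 8.24 ± 0.63 on day 3 (adjusted p = 8.3e-09) and 4.26 ± 0.58 on day 6 (adjusted p = 1.9e-05), and 1.2 on day 12 did not pass (adjusted p = 0.19), although the day 12 libraries lay above those of day 0. From day 3 to day 12 Ccl5 fell by 7.03 ± 0.57 on the log2 scale (adjusted p = 1.1e-07).

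iPSC-derived cells held 39.8, 38.3 and 14.8 CPM of Ccl5 on day 0, 11.3, 8.42 and 26.8 on day 3, 5.88, 1.98 and 11.9 on day 6, and 0.719, 1.23 and 1.11 on day 12. Days 0 and 3 overlapped, and days 6 and 12 lay below day 0. The day 3 change was -1.0 (adjusted p = 0.13; -1.33 and 0.045 without day 0 replicate 3, -1.62 and 0.019 without day 3 replicate 3), and Ccl5 fell by 2.20 ± 0.48 on day 6 (adjusted p = 0.002; -2.97 without day 6 replicate 3). It was lowest on day 12, with log2 changes of -4.88 ± 0.60 from day 0 (adjusted p = 4.6e-06) and -3.88 ± 0.60 from day 3 (adjusted p = 3.2e-04; -3.25 without day 3 replicate 3). Between sources Ccl5 was higher in iPSC-derived cells on day 0 (4.36 ± 0.58) and lower on day 3 (-4.87 ± 0.51; -5.50 without iPSC-derived day 3 replicate 3) and day 6 (-2.10; -2.88 without iPSC-derived day 6 replicate 3), while -1.72 on day 12 did not pass (adjusted p = 0.11). The interaction was -9.24 from day 0 to day 3 (-9.87 without iPSC-derived day 3 replicate 3) and -6.08 from day 0 to day 12.

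T and NK cells are another known source of Ccl5. Their 8 markers summed to between 0 and 0.495 CPM in the bone marrow-derived day 3 libraries, with 7 of the 8 (Cd3e, Cd3g, Trac, Cd8a, Nkg7, Klrb1c and Ncr1) at 0 in all 3, and to at most 1.19 CPM in any library. The 4 endothelial markers summed to between 42.7 and 50.7 CPM in that group, with Cldn5 at 0 in all 3 libraries, and to at most 30.5 in any other. The part of these markers in the Ccl5 level was not tested.

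Interferon-response genes also rose in bone marrow-derived cells on day 3. Of the 12 interferon-response genes listed, 10 rose in bone marrow-derived cells on day 3 and the other two did not pass (median log2 change 2.49, against 0.04 over all genes, of which 18.5% changed), among them Oasl1 (5.45) and Irf7 (4.74, the interferon regulatory factor that amplifies type I interferon). Irf7 stood at 26.6, 52.5 and 21.2 CPM on day 0 and 783.9, 936.1 and 962.0 on day 3. By day 12 against day 0, 8 were called in bone marrow-derived cells, each higher (23.8% of all genes changed), and 8 in iPSC-derived cells, each lower (24.7% of all genes), led by Oasl1 (-4.76), Rsad2 (-2.87) and Cxcl10 (-4.70). On day 0, 11 were higher and 1 lower in iPSC-derived cells than in bone marrow-derived cells, the lower being Irf1 (-1.17), where 36.0% of all genes differed.

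Ccl3 and Ccl4 were higher in iPSC-derived than in bone marrow-derived cells on every day. Ccl3 had 282.2, 301.0 and 377.0 CPM on day 0 in iPSC-derived cells, 171.6, 148.2 and 182.6 on day 3, 224.9, 81.8 and 288.2 on day 6, and 272.3, 243.2 and 197.4 on day 12. In bone marrow-derived cells it had 45.9, 39.4 and 35.2, then 33.3, 50 and 46.4, then 62.9, 61.3 and 47.7, and 53.5, 56.3 and 70.1. The lowest iPSC-derived library of the series for Ccl3 (81.8, day 6 replicate 2) lay above the highest bone marrow-derived one (70.1). The log2 difference between sources was 2.99 ± 0.30, 1.95, 1.79 and 1.99 ± 0.29 on days 0, 3, 6 and 12, and it passed the test on all 4 days.

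Ccl4 had 275.5, 278.5 and 271.2 CPM in iPSC-derived cells on day 0, 64.9, 48.1 and 100.2 on day 3, 110.7, 57.3 and 191.0 on day 6, and 212.5, 242.3 and 86.8 on day 12. Bone marrow-derived cells had 16.2, 15.9 and 18.5, then 11.4, 21.6 and 16.2, then 22.6, 21.1 and 14.6, and 43.7, 41.8 and 45.2. Here too every iPSC-derived library (lowest 48.1) lay above every bone marrow-derived one (highest 45.2). The difference between sources was 4.03 ± 0.41, 2.11, 2.62 and 2.05 ± 0.37 on the 4 days, and it passed on each. Over the 24 libraries the 2 genes had the highest correlation of any pair of members (r = 0.95), and within groups r was 0.78.

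Over time, Ccl4 fell in iPSC-derived cells by 1.95 ± 0.37 on the log2 scale on day 3 (adjusted p = 6.2e-04). Its day 6 change of -1.20 (adjusted p = 0.019) was lost without day 6 replicate 1 (-1.14, adjusted p = 0.066) or replicate 2 (-0.87, adjusted p = 0.081), and its day 12 change was -0.61 and did not pass. Ccl3 was lower on day 3 by a smaller amount, -0.93 ± 0.28 (adjusted p = 0.019), a call lost without day 3 replicate 1 (adjusted p = 0.061), day 3 replicate 2 (0.092) or day 0 replicate 3 (0.076). In bone marrow-derived cells Ccl4 rose by 1.37 ± 0.38 by day 12 (adjusted p = 0.012), with no overlap between the days, while Ccl3 had 0.58 and did not pass. The interaction for Ccl4 was -1.91 from day 0 to day 3 and -1.98 from day 0 to day 12.

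The balance of the pair differed between some of the days in each source. Ccl3 over Ccl4 per length was between 0.883 and 1.2 in iPSC-derived cells on day 0 and between 1.57 and 2.65 on day 3, with no overlap. On day 6 it was between 1.23 and 1.75, which overlapped day 3. Day 12, between 0.865 and 1.96, overlapped both day 0 and day 3. In bone marrow-derived cells the ratio was between 1.64 and 2.81 on days 0 to 6 and between 1.06 and 1.34 on day 12, with no overlap.

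Ccl9 and Ccl6, neighbours on the same strand, differed in their balance between the sources. Ccl6 had 387.3, 347.9 and 441.9 CPM in bone marrow-derived cells on day 0, 470.1, 381.1 and 362.9 on day 3, 324.9, 264.0 and 260.4 on day 6, and 179.7, 192.6 and 182.5 on day 12. It fell by 1.08 ± 0.20 on the log2 scale by day 12 (adjusted p = 2.7e-04), where the days did not overlap. iPSC-derived cells had 46.5, 52.1 and 65, then 89.3, 69.1 and 79.5, then 50.5, 40.1 and 47.3, and 107.0, 102.7 and 48.8 CPM, all below every bone marrow-derived library.

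The Ccl6 difference between sources was -2.85 ± 0.22, -2.35, -2.62 and -1.10 ± 0.20 on days 0, 3, 6 and 12, and it passed on each. Within iPSC-derived cells the day 12 change of 0.66 ± 0.21 (adjusted p = 0.02) was lost without day 0 replicate 1 or 2 or day 12 replicate 1 or 2 (values 0.49 to 0.63, adjusted p 0.066 to 0.12) and with the fit limited to these groups (adjusted p = 0.15). The interaction from day 0 to day 12 was 1.74. From day 3 to day 12 it was 1.25 (adjusted p = 0.015), and 1.07 (adjusted p = 0.058) or 1.11 (adjusted p = 0.051) without iPSC-derived day 12 replicate 1 or replicate 2.

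Ccl9, by contrast, was higher in iPSC-derived cells on day 0 and day 12. Its iPSC-derived levels were 495.6, 445.1 and 991.5 CPM on day 0, 526.2, 456.4 and 412.1 on day 3, 437.2, 247.3 and 280.3 on day 6, and 632.8, 847.0 and 367.7 on day 12. Bone marrow-derived levels were 289.9, 276.2 and 291.4, then 435.1, 516.8 and 480.1, then 228.8, 220.7 and 176.5, and 173.9, 227.5 and 182.0. The sources overlapped only on day 3, where bone marrow-derived cells were at their highest. The difference was 1.17 ± 0.28 on day 0 and 1.66 ± 0.28 on day 12 and passed on both. On day 3 it was -0.04 (adjusted p = 0.95) and on day 6 it was 0.62 (adjusted p = 0.15), and neither passed.

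Several changes of Ccl9 with time were lost without a single library. In iPSC-derived cells the day 6 change of -1.0 ± 0.27 (adjusted p = 0.0095) was -0.55 without day 0 replicate 3 (adjusted p = 0.11) and -0.84 without day 6 replicate 2 (adjusted p = 0.057). The interaction from day 0 to day 3, -1.21 (adjusted p = 0.028), was -0.76 (adjusted p = 0.11) without day 0 replicate 3 and was also lost without any 1 of 6 other libraries (adjusted p 0.055 to 0.069). The interaction from day 3 to day 12 was 1.70 (adjusted p = 0.016), and 1.41 (adjusted p = 0.059) without iPSC-derived day 12 replicate 2. In bone marrow-derived cells the value of 0.74 on day 3 did not pass (adjusted p = 0.064), but it did with the fit limited to these groups (adjusted p = 1.3e-05). There Ccl9 fell by 1.30 from day 3 to day 12 (adjusted p = 0.0037), a call that no left-out library removed.

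The ratio of the pair separated the sources without overlap in any library. Ccl9 over Ccl6 per length was between 3.06 and 8.99 in the iPSC-derived libraries and between 0.389 and 0.799 in the bone marrow-derived ones. In each of the 12 iPSC-derived libraries Ccl9 was thus the higher of the pair per length, and in each of the 12 bone marrow-derived libraries Ccl6 was. The separation of the sources does not depend on the exon lengths used (3045 bases for Ccl9, 1795 for Ccl6), but the order within bone marrow-derived libraries does. In CPM, Ccl9 was the higher in some of them, such as day 3 replicate 2 (516.8 against 381.1).

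**Figure D4:**
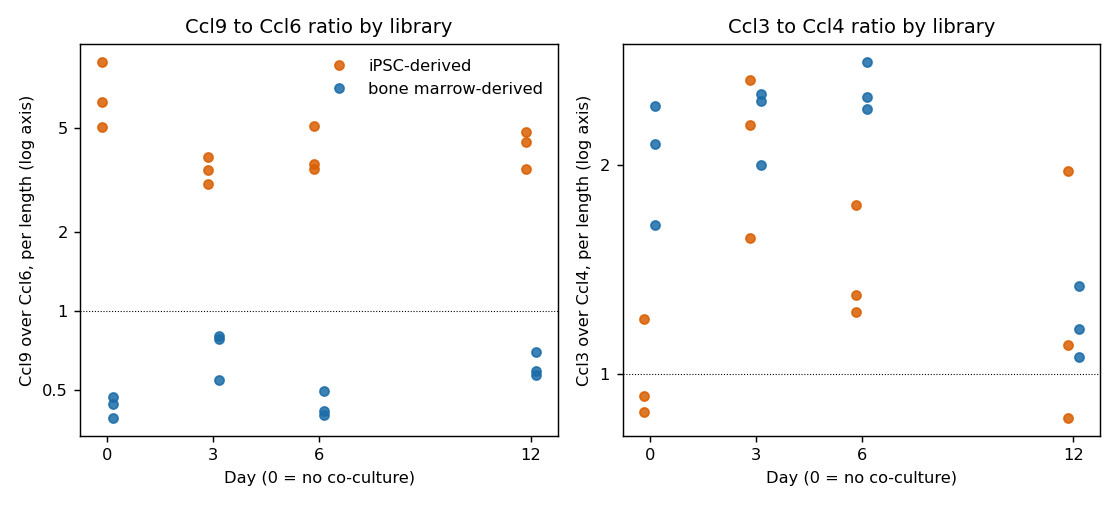
Ratio of Ccl9 to Ccl6 (left) and of Ccl3 to Ccl4 (right), each per exon length (y axis, log scale), by day (x axis) in each library, for iPSC-derived (orange) and bone marrow-derived (blue) cells; the dotted line marks equal levels. Ccl9 to Ccl6 lies above 3 in every iPSC-derived library and below 0.8 in every bone marrow-derived one, while the Ccl3 to Ccl4 ratios of the sources overlap.

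Because these neighbours differed in opposite directions between the sources on days 0 and 12, their 250 upstream bases are shown as well (RefSeq, GRCm38.p6, minus strand, chr11:83578637-83578886 and chr11:83593088-83593337). Capitals mark an AP-1 match.
Ccl9: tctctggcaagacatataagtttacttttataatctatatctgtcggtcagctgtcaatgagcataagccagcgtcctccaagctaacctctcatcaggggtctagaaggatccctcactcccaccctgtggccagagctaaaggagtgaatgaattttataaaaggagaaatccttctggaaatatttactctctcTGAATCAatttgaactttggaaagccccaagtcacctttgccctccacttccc
Ccl6: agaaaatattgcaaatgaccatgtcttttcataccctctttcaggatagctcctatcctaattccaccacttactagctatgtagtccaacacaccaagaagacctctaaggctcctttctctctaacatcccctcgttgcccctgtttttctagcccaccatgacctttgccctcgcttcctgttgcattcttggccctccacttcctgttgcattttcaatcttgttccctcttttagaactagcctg
The Ccl9 promoter holds TGAATCA from -53 to -47, the only match of the 4 motifs in the 5 promoters searched. The pair shares 0 runs of at least 8 bases within 5 bases of the same distance from the start.

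Ccl24 was the scarcest of the 10 genes, with 104 counts over the 24 libraries. It had 2.06, 1.39 and 1.04 CPM in bone marrow-derived cells on day 0, and 0.109, 0 and 0.107 in iPSC-derived cells. The day 0 ratio was 20.7-fold lower in iPSC-derived cells, with a 95% exact interval of 5.32 to 177.0 that covers counting error only. The edgeR call (adjusted p = 0.035) was lost without any 1 of 5 of the 6 libraries (adjusted p 0.054 to 0.11). iPSC-derived day 3 libraries held 0.821, 1.68 and 0.459 CPM, and no library of any other co-cultured group was above 1.08. The fitted interaction from day 0 to day 3, 5.59 (adjusted p = 0.048), rests on 2 counts in iPSC-derived cells on day 0, so its size is not a bound, and it was lost without any 1 of 11 of the 12 libraries (values 4.98 to 5.93, adjusted p 0.056 to 0.1).

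By a search over 7856 genes with at least 20 CPM in their highest group, the 3 genes closest to each ligand in Pearson's r over the 24 libraries were found. Ccl7 was closest to Ccl2 (0.88), followed by Tmpo and Fam111a (0.80 each). The closest genes to Ccl3 were Rhoc (0.97), Ccl4 (0.95) and Serpinb1c (0.94), and Bhlhe41 (0.94) and Serpinb1c (0.93) followed Ccl3 for Ccl4. Ccl5 was nearest Hcls1 and Mcemp1 (0.91 each) and Slpi (0.90), and Ccl6 nearest Cd48 (0.96), Spic and Clec4a1 (0.95 each). For Ccl8 they included Gcnt1 (0.90) and Mmp2 (0.89), for Ccl12 Ccl7, Prpf40b (0.85 each) and Slamf9 (0.84), and for Ccl9 Mmgt2, Rac2 (0.80 each) and Sdhaf2 (0.79).

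Ccr1 and Ccr2, receptors of these ligands, were higher in bone marrow-derived than in iPSC-derived cells on each day. Of 14 CC receptor genes listed, 8 were tested, and 4 changed in bone marrow-derived cells on day 3, each higher (18.5% of all genes changed), among them Ccr1 (1.85), Ccr2 (1.23) and Ccrl2 (1.76).

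Ccr1 binds Ccl3, Ccl5, Ccl6 and Ccl9. On day 12 the log2 differences, iPSC-derived over bone marrow-derived, were -3.17 for Ccr1 (adjusted p = 2.7e-05) and -7.44 for Ccr2 (adjusted p = 1.1e-08), among the 3 of 8 that passed, all lower, where 9.77% of all genes differed. Ccr2 had 22.9, 37.2 and 22.1 CPM in bone marrow-derived cells on day 0 and 45.7, 45.7 and 43.4 on day 12, against 2.08, 0.328 and 0 and then 0.479, 0.19 and 0.101 in iPSC-derived cells. iPSC-derived cells thus held CPM levels of Ccl2 between 57.7 and 97.1 on day 12 with at most 0.479 CPM of Ccr2. Ccrl2, an atypical receptor that presents chemerin, fell by 2.63 in iPSC-derived cells by day 12. It had 286.1, 233.1 and 44.6 CPM there on day 0 and 31.9, 46.6 and 12.5 on day 12, so the days overlapped through day 0 replicate 3. Ccr8, the receptor of mouse Ccl8, was at most 0.344 CPM in any library, and Ccr6 had 0 counts.

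NF-kB genes, immediate early genes and IL-4 genes were listed as pathways that bear on these ligands. Of 16 NF-kB subunits and feedback regulators, 7 changed in bone marrow-derived cells on day 3, each higher, led by Tnfaip3 (1.98), Nfkbiz (2.60) and Tnip1 (0.95), while 3 rose and 6 fell in iPSC-derived cells, led by Zfp36l1 (2.17), Nfkbia (-2.48) and Nfkbib (-1.32). Medians were 0.54 and -0.33, against 0.04 for all genes in both, of which 18.5% and 19.4% changed. Of 10 immediate early genes known to rise when tissue is dissociated, 6 changed in iPSC-derived cells by day 12, each higher, led by Junb (2.39), Nr4a1 (6.52) and Fos (3.16), and 7 rose and 1 (Ier3, -0.96) fell in bone marrow-derived cells (24.7% and 23.8% of all genes changed). On day 3 against day 0, 2 of the 10 rose and 1 (Nr4a1, -2.10) fell in bone marrow-derived cells (18.5% of all genes changed). In iPSC-derived cells 1 (Nr4a1, 4.35) rose and 3 fell (19.4%). The part of these genes in the changes of the ligands was not tested. Of 8 IL-4 and alternative activation genes tested, Arg1 (8.47) and Il4ra (1.92) rose and Clec10a (-4.58) and Mgl2 (-5.76) fell in bone marrow-derived cells on day 3, where 18.5% of all genes changed.

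Among 11 other CC ligands listed, 3 passed the low-count filter (Ccl22, Ccl25 and Ccl27a). Ccl25 reached 15.8 CPM and Ccl22, a Ccr4 ligand of dendritic cells and macrophages, 5.3 CPM at most, and each of the rest stayed below 2 CPM in every library. Ccl11, which lies between Ccl7 and Ccl12, had at most 0.902 CPM.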

How the data were processed

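RNA-seq read pairs of 24 libraries were counted by the authors, and the deposited values are whole-number counts per gene, not normalized, of 5839316 to 11805478 per library. Per the labels' protocols, libraries were made by a SMART-seq v2 method that keeps no strand; per the submitters' processing notes, reads were aligned with STAR to mm10 (GRCm38); per the file headers, featureCounts 1.5.0-p1 counted read pairs over GENCODE vM9 exons without strand, leaving out reads that map to several places or overlap several genes. A spike-in is named in the labels' protocols, and 0 rows of the table are spike-ins. Gene symbols were matched to 47224 of 47643 identifiers.

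From these counts, TMM scaling, filterByExpr (15000 genes kept) and edgeR 4.0.16's quasi-likelihood test (robust) were run on all 24 libraries in 1 fit with 1 coefficient per group, for 15 contrasts, with Benjamini-Hochberg adjustment over all genes tested and a threshold of 0.05. Groups came from the labels. The script was tested on simulated counts. Where a group had 3 or fewer counts of a gene, fold changes between 2 groups were replaced by exact 95% ratio intervals or bounds at a floor of 3 counts over the group, which cover counting error only; interactions are fitted values throughout. Alternatives were RLE scaling, no scaling, no filter, DESeq2 1.42.0, only the groups compared in the fit, the replicate number as a block, and leaving out each library. Promoter sequences came from RefSeq (GRCm38.p6); protein sequences were not used here. The members and gene lists were chosen with earlier results of these data known. The rule for named genes took all 10 ligands in every comparison, with values not printed entering the counts; from each list the 3 genes with the lowest adjusted p, any called against most of its list, and the receptors are named, apart from some genes that are not reported here.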

Additional observations from a re-analysis of the deposited data

Results flagged for a closer look

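For the CC ligands below, the change between 2 days differed between the sources by the test of the difference itself (edgeR's interaction term, adjusted p under 0.05), given as the iPSC-derived log2 change minus the bone marrow-derived one. From day 0 to day 3 these were Ccl2 (-5.19), Ccl4 (-1.91), Ccl5 (-9.24), Ccl7 (-5.45), Ccl9 (-1.21), Ccl12 (-6.47) and Ccl24 (5.59). From day 0 to day 12 they were Ccl2 (-3.73), Ccl4 (-1.98), Ccl5 (-6.08), Ccl6 (1.74), Ccl7 (-2.83) and Ccl12 (-4.11), and from day 3 to day 12 Ccl6 (1.25) and Ccl9 (1.70). Ccl24 had 104 counts in all, 2 of them in iPSC-derived cells on day 0, so the size of its fitted value is not a bound. iPSC-derived day 0 replicate 3, which had the highest Ccl2, Ccl7, Ccl9 and Ccl12 of its group, enters each comparison with day 0, and without it the Ccl7 value to day 12 was -1.02 and the Ccl9 value to day 3 was -0.76, neither past the test.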

How the results depend on the processing

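Of 84 changes of single CC ligands past the test, 63 kept their direction and their side of the threshold under every alternative run, 12 were lost under at least 1 setting that kept all libraries, and 20 were lost when some library was left out; none of the 84 changed direction. RLE scaling and DESeq2 lost 0 of the 84. A fit limited to the groups compared lost 10, no filter on low counts 2 and no scaling factors 1 (Ccl24). In counts of members called, the fit limited to the groups compared gave 2 for iPSC-derived day 6 against day 0 (reported: 4), 6 and 8 for bone marrow-derived days 3 and 6 (reported: 3 and 4), 8 between sources on day 12 (reported: 5) and 4 for the interaction from day 3 to day 12 (reported: 2). Without the filter these were 8 for iPSC-derived day 6, 6 for bone marrow-derived day 3, 9 between sources on day 12 and 6 for that interaction, and DESeq2 gave 4 for it. The cause was not tested.

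Leaving out each library gave 4 to 6, 3 to 5 and 3 to 6 members called for iPSC-derived days 3, 6 and 12 against day 0, and 5 to 6 for day 12 against day 3. Bone marrow-derived counts stayed at 3, 4 and 6 against day 0 and were 5 to 6 (reported: 8) for day 12 against day 3. Between sources they were 7 to 9, 7 to 8, 6 to 7 and 5 on days 0, 3, 6 and 12, and for the interactions 5 to 7, 5 to 6 and 0 to 3. Without iPSC-derived day 0 replicate 3 the sign turned for Ccl2 from day 0 to day 12 (1.39) and for Ccl7 between sources on day 0 (-0.62), neither of which had passed before; over all libraries left out these ranged from -0.95 to 1.39 and from -0.62 to 1.64.

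Replicate numbers are shared between groups. Deviations from group means correlated weakly between same-numbered libraries of a source (-0.054 to 0.161, median 0.019, over 0.1 in 4 of 36 pairs). Differently numbered pairs of a source had -0.205 to 0.106 (median -0.009, over 0.1 in 1 of 72 pairs). Whether same-numbered libraries share a culture or batch cannot be told from these values. With the replicate number as a block, 1 of the 84 changes was lost, the Ccl24 interaction from day 0 to day 3 (5.65, adjusted p = 0.063), which took that count from 7 to 6.

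Without scaling factors the median of all genes moved by over 0.1 in 9 of 15 comparisons, for example from 0.044 to 0.217 for bone marrow-derived day 12 against day 0 and from -0.027 to -0.25 between sources on day 12. The split of all genes called higher and lower then moved by over 10 percentage points in 11 of 15 comparisons. It went from 1686 and 1221 to 1259 and 2082, from 2099 and 1607 to 1733 and 2057 and from 611 and 723 to 728 and 547 for iPSC-derived day 3 and day 12 against day 0 and day 12 against day 3. For bone marrow-derived day 6 and day 12 against day 0 and day 12 against day 3 it went from 1899 and 1034 to 2328 and 673, from 2206 and 1362 to 2820 and 882 and from 630 and 637 to 790 and 505. Between sources on days 3, 6 and 12 it went from 1341 and 1338 to 922 and 1987, from 1048 and 934 to 806 and 1182 and from 754 and 711 to 416 and 1235. The interactions from day 0 to day 3 and day 12 went from 1354 and 1721 to 914 and 2425 and from 1361 and 1647 to 846 and 2473.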
